A study of Homo sapiens with 12 samples.

Results

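The genes described are 10 immediate early genes: FOS, FOSB, FOSL1, JUN, JUNB, JUND, EGR1, EGR3, IER2 and IER3. They were taken by name, and all 10 were found among the 61860 genes counted in each of 2 tables. RNA was sequenced from 22Rv1 cells, a human prostate cancer line grown in RPMI-1640 with fetal bovine serum, in a study of phosphorylated RB, ETS1 and CDK4/6 inhibitors. The 12 libraries fall into 4 groups of 3: cells with siRNA against ETS1 and the controls of that knockdown, and cells with siRNA against ZNF783, which encodes a zinc finger protein, and a second set of controls. No control library is shared. All libraries come from 1 cell line, and neither the knockdown reagents nor the time between transfection and harvest is stated in the sources used here. Replicates are not stated to be separate cultures, so the spread behind each p-value may be technical.

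Immediate early genes are transcribed within minutes of a growth factor, serum or stress signal, from factors already present in the cell. The MAP kinase ERK phosphorylates ternary complex factors, a branch of the ETS family, which sit with SRF on CArG boxes in many of these promoters. FOS proteins pair with JUN proteins to form AP-1, which binds DNA as a dimer, JUN proteins can also pair with each other, and EGR proteins bind GC-rich sites through zinc fingers. In growing cells without a fresh stimulus the transcripts are short-lived and many are kept low.

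Total counts ran from 13518177 to 48996691 per library. The floor used for an undetected gene, 3 counts, equals 0.0612 to 0.222 CPM (counts scaled to library size alone). Gene levels in CPM are scaled with TMM factors as well. ETS1 transcript never exceeded 3 counts in any of the 12 libraries, controls included, so its knockdown could not be measured. ZNF783 averaged 28.0 ± 0.629 CPM with its siRNA and 34.8 ± 0.91 CPM in its controls (SD, n = 3 each), a log2 fold change of -0.31 (SE 0.055, edgeR adjusted p = 2.46e-05). It was lower with ETS1 siRNA too, at 16.6 ± 3.53 CPM (18.6 CPM without ETS1 siRNA replicate 1), against 21.6 ± 0.678 CPM in the ETS1 controls. ZNF783 has 58.0% GC and shares 1985 exonic bases with AC004890.2 on the same strand. The part of either in these values was not tested. All 8 luminal prostate markers exceeded 1 CPM in every group and none of 3 basal or 4 endothelial markers did. The summed luminal markers ran from 2280 to 2324 CPM with ETS1 siRNA and from 2430 to 2462 CPM in its controls, and from 2343 to 2370 CPM with ZNF783 siRNA and from 2502 to 2542 CPM in its controls. Of 6 fibroblast markers, COL1A1 and LUM exceeded 1 CPM in all groups and DCN in the ETS1 experiment, with sums of 59.7 to 70.8 and 60.1 to 62.4 CPM (ETS1 siRNA and controls) and of 36.4 to 39.9 and 42.9 to 46.5 CPM (ZNF783 siRNA and controls). Of the leukocyte markers, CD3E was at 0 in all groups. The part of these lists in the results was not tested. ETS1 siRNA replicate 1 stood apart: its counts differed from replicates 2 and 3 by a chi-square per degree of freedom of 40.3 and 38.9, against 1.82 between these 2, and each ETS1 result is given with and without it. Fold changes also followed GC content across genes, with a Spearman correlation of -0.499 for ETS1 siRNA, -0.361 without replicate 1 and -0.377 for ZNF783 siRNA. These are descriptions over genes of the same libraries. The members are more GC-rich (51.9% to 69.7%) than the median tested gene (48.1% and 48.4% in the 2 experiments), and values corrected for GC content and length are therefore given beside the results they alter.

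With all 6 libraries of the ETS1 experiment, 0 of the 9 members tested passed an adjusted p of 0.05 (edgeR), where 0.0461% of all genes did, and 5 had an unadjusted p below 0.05. DESeq2 called 1 of them, where 3.76% of all genes passed, and limma-voom 0, where 0.118% did. The fit of all 12 libraries called 5 (FOS, FOSB, EGR1 and EGR3 higher and JUNB lower), where 9.57% of all genes passed. Without ETS1 siRNA replicate 1, FOS, FOSB, EGR1 and EGR3 were higher and JUNB and JUND lower, 6 of 9, against 23.0% of all genes (9.96% higher and 13.0% lower). With ZNF783 siRNA, EGR1 was higher and JUN, JUNB and JUND were lower, 4 of 9, against 25.1% of all genes (11.3% higher and 13.8% lower). In the fit of all 12 libraries JUNB alone of these 4 passed, where 4.21% of all genes did. These shares over all genes apply to the gene lists below too. IER3 was too low to test in either experiment. The 9 tested members had a median log2 fold change of 0.22 with ETS1 siRNA, 0.03 without its replicate 1 and -0.12 with ZNF783 siRNA, where all tested genes had medians of 0.01, 0.00 and 0.00.

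**Figure D1:**
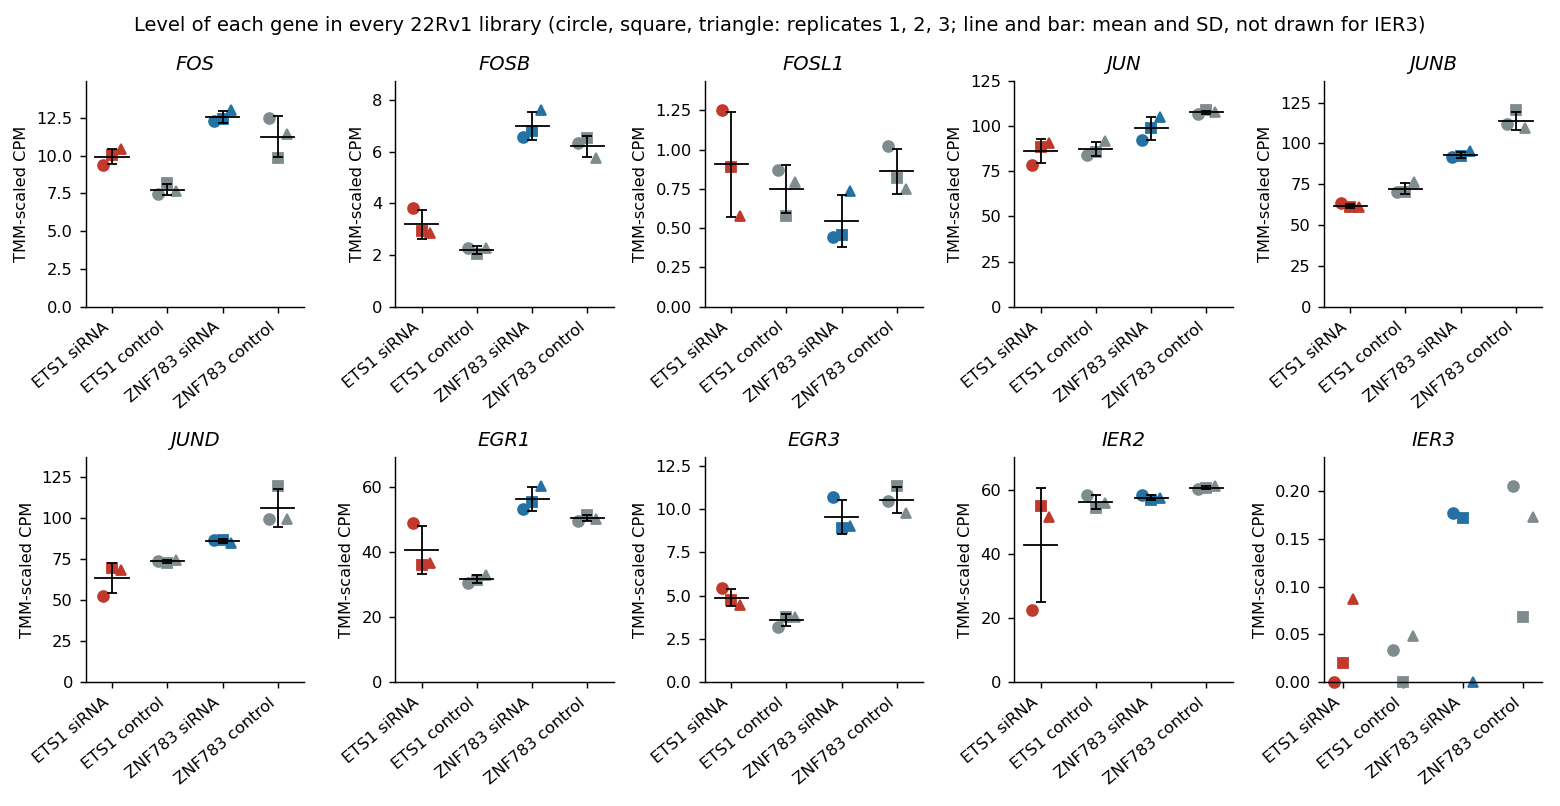
TMM-scaled CPM (linear axes from 0) of each of the 10 genes in every library, with ETS1 siRNA, ETS1 control, ZNF783 siRNA and ZNF783 control from left to right. Points are replicates 1 to 3, and lines and bars are the mean and SD, left out for IER3; FOS, FOSB, EGR1 and EGR3 lie above their controls in all 3 ETS1 siRNA libraries, and IER2 in ETS1 siRNA replicate 1 lies at 22.4 CPM, below all other libraries.

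FOS (ENSG00000170345, GRCh38 chromosome 14, 75278774 to 75282230, plus strand) encodes the prototype partner of JUN in AP-1. It had 9.40, 10.02 and 10.42 CPM in ETS1 siRNA replicates 1 to 3, against 7.44, 8.17 and 7.63 CPM in the ETS1 controls. All 3 siRNA libraries lay above all 3 controls, and the means were 9.95 ± 0.517 and 7.75 ± 0.377 CPM. The log2 fold change was 0.36 (SE 0.0863, unadjusted p = 0.00364, edgeR adjusted p = 0.147), and without ETS1 siRNA replicate 1 it was 0.39 (SE 0.0819, adjusted p = 0.000172). In the ZNF783 experiment FOS had 12.29, 12.41 and 13.00 CPM with siRNA and 12.49, 9.82 and 11.46 CPM in the controls. These groups overlap, since control replicate 1 exceeded 2 of the siRNA libraries, and the log2 fold change of 0.15 (SE 0.0904) did not pass (edgeR adjusted p = 0.227).

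FOSB (ENSG00000125740, chromosome 19, 45467995 to 45475179, plus strand), a second FOS protein, was less abundant. Its level was 3.84, 2.92 and 2.84 CPM with ETS1 siRNA, against 2.28, 2.03 and 2.27 CPM in the controls. The groups did not overlap, and ETS1 siRNA replicate 1 was the highest of the 6. Its log2 fold change was 0.52 (SE 0.151, edgeR adjusted p = 0.184) over all 6 libraries and 0.38 (SE 0.141, adjusted p = 0.0423) without that replicate. With ZNF783 siRNA the level was 6.59, 6.81 and 7.61 CPM, against 6.35, 6.55 and 5.76 CPM in the controls. Here too every siRNA library exceeded every control, but the log2 fold change of 0.16 (SE 0.115) did not pass (edgeR adjusted p = 0.326).

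FOSL1 (ENSG00000175592, chromosome 11, 65892049 to 65900573, minus strand) encodes FRA1, a FOS protein without the C-terminal transactivation domain of FOS. Its counts were 29, 44 and 20 with ETS1 siRNA, against 26, 17 and 33 in the controls, and 10, 8 and 10 in the ZNF783 siRNA libraries, against 15, 12 and 13 in theirs. The ETS1 groups overlap, with a log2 fold change of 0.22 (SE 0.299, edgeR adjusted p = 0.684), or 0.00 (SE 0.254, adjusted p = 0.996) without ETS1 siRNA replicate 1. Scaled to depth, FOSL1 stood at 0.44, 0.46 and 0.74 CPM after ZNF783 knockdown, against 1.02, 0.82 and 0.75 CPM in its controls. The lowest control exceeded the highest siRNA library narrowly, and the log2 fold change of -0.70 had an SE of 0.35 (edgeR adjusted p = 0.142).

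JUN (ENSG00000177606, chromosome 1, 58780788 to 58784327, minus strand, 1 exon) encodes the AP-1 subunit that pairs both with itself and with FOS proteins. It had 78.4, 88.7 and 90.9 CPM with ETS1 siRNA, against 84.2, 85.8 and 91.8 CPM in the controls. The groups overlap, and the log2 fold change was -0.02 (SE 0.0743, edgeR adjusted p = 0.894) over 6 libraries and 0.03 (SE 0.0354, adjusted p = 0.611) without ETS1 siRNA replicate 1. In the ZNF783 experiment JUN had 92.5, 98.9 and 104.9 CPM with siRNA and 107.0, 108.7 and 107.6 CPM in the controls. All 3 siRNA libraries were below all 3 controls, by a log2 fold change of -0.13 (SE 0.0373, edgeR adjusted p = 0.00553). This call was lost without ZNF783 siRNA replicate 1 (-0.08, adjusted p = 0.169) and with the GC correction (-0.07, adjusted p = 0.162). After the same correction and without ETS1 siRNA replicate 1, JUN was higher with ETS1 siRNA (0.10, edgeR adjusted p = 0.0155).

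JUNB (ENSG00000171223, chromosome 19, 12791496 to 12793315, plus strand, 1 exon), a weaker transactivator than JUN that competes for the same partners, was the one of the 4 members called with ZNF783 siRNA that passed under every alternative tried. It measured 91.8, 92.1 and 95.3 CPM in the ZNF783 siRNA libraries, against 112.1, 120.2 and 109.7 CPM in the controls. No library of one group reached the other, the means were 93.1 ± 1.90 and 114.0 ± 5.54 CPM, and the log2 fold change was -0.29 (SE 0.0361, edgeR adjusted p = 2.42e-08). Its fold change lay between -0.32 and -0.14 over these 18 alternatives, with a highest adjusted p of 0.00708 in the fit of all 12 libraries. With ETS1 siRNA it measured 63.4, 61.0 and 61.2 CPM, against 70.4, 70.1 and 76.2 CPM in the controls. Again the groups did not overlap, and the log2 fold change of -0.22 (SE 0.060, unadjusted p = 0.00677, edgeR adjusted p = 0.166) became -0.25 (SE 0.038, adjusted p = 5.28e-07) without ETS1 siRNA replicate 1.

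JUNB has 64.9% GC, and its fold changes moved with the GC correction. With ZNF783 siRNA the corrected value was -0.15 (edgeR adjusted p = 0.000245), and with ETS1 siRNA it was -0.14 without replicate 1 (adjusted p = 0.0012) but 0.03 over all 6 libraries (adjusted p = 0.927). JUNB also shares 259 exonic bases with HOOK2 on the opposite strand, and the counts do not tell strands apart. HOOK2 had a log2 fold change of -0.14 with ZNF783 siRNA (edgeR adjusted p = 0.0326) and of -0.15 with ETS1 siRNA (adjusted p = 0.407). Its part in the JUNB counts was not tested.

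JUND (ENSG00000130522, chromosome 19, 18279760 to 18281622, minus strand, 1 exon) encodes the JUN protein that is usually the most steadily expressed, and at 69.7% it had the highest GC content of the members. It had 86.8, 86.9 and 84.7 CPM with ZNF783 siRNA, against 99.5, 119.6 and 99.9 CPM in the controls. The siRNA libraries lay close together below controls that spread widely, with a log2 fold change of -0.30 (SE 0.0729, edgeR adjusted p = 0.0237). The call was lost on leaving out ZNF783 siRNA replicate 1, 2 or 3 (adjusted p = 0.102, 0.111 and 0.107), and the GC-corrected value was -0.12 (adjusted p = 0.0198). With ETS1 siRNA it had 52.8, 69.6 and 68.3 CPM, against 73.8, 73.0 and 74.8 CPM in the controls. Replicate 1 was the lowest by far, though all 3 were below every control; the log2 fold change was -0.21 (SE 0.107, edgeR adjusted p = 0.323) and -0.11 (SE 0.0355, adjusted p = 0.023) without that replicate. Under the GC correction that last fold change was 0.04 (edgeR adjusted p = 0.445), so the lower level of JUND with ETS1 siRNA does not hold under it.

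EGR1 (ENSG00000120738, chromosome 5, 138465490 to 138469315, plus strand) encodes a zinc finger activator that responds to serum and is often raised in prostate tumours. It was the single member called higher with ZNF783 siRNA, where it had 53.4, 55.4 and 60.3 CPM, against 49.7, 51.4 and 50.1 CPM in the controls. All siRNA libraries exceeded all controls, with means of 56.4 ± 3.56 and 50.4 ± 0.907 CPM, and the log2 fold change was 0.15 (SE 0.0463, edgeR adjusted p = 0.0117). It was 0.20 with the GC correction (adjusted p = 0.000574), did not pass without ZNF783 siRNA replicate 3 (0.11, adjusted p = 0.104) and did not pass with DESeq2 (adjusted p = 0.0568). With ETS1 siRNA it had 49.1, 36.1 and 36.7 CPM, against 30.6, 31.5 and 33.0 CPM in the controls. Replicate 1 was the highest, and the other 2 siRNA libraries also lay above every control. The log2 fold change was 0.35 (SE 0.124, edgeR adjusted p = 0.233) with replicate 1 and 0.19 (SE 0.0458, adjusted p = 0.00124) without it, which is 0.25 (adjusted p = 1.78e-05) with the GC correction as well.

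EGR3 (ENSG00000179388, chromosome 8, 22687659 to 22693302, minus strand), a zinc finger factor related to EGR1, had 5.43, 4.74 and 4.49 CPM with ETS1 siRNA, against 3.18, 3.80 and 3.77 CPM in the controls. All 3 siRNA libraries were above the controls, with a log2 fold change of 0.44 (SE 0.123, edgeR adjusted p = 0.175) and of 0.36 (SE 0.116, adjusted p = 0.0187) without ETS1 siRNA replicate 1. In the ZNF783 experiment its levels overlapped, at 10.7, 8.92 and 9.01 CPM with siRNA and 10.4, 11.3 and 9.79 CPM in the controls. The log2 fold change was -0.12 (SE 0.0978, edgeR adjusted p = 0.401). EGR3 shares 164 exonic bases with AC055854.1 on the opposite strand.

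IER2 (ENSG00000160888, chromosome 19, 13150415 to 13154908, plus strand) encodes a nuclear protein of the early serum response. It had 22.4, 54.8 and 51.3 CPM with ETS1 siRNA, against 58.4, 54.4 and 55.7 CPM in the controls. The low value belongs to replicate 1 alone, and replicate 2 lies within the controls. The log2 fold change was -0.38 (SE 0.291, edgeR adjusted p = 0.477) over all libraries and -0.08 (SE 0.0401, adjusted p = 0.127) without replicate 1. With ZNF783 siRNA IER2 had 58.2, 56.6 and 57.5 CPM, against 60.1, 60.4 and 61.1 CPM in the controls; the groups did not overlap, but the log2 fold change of -0.07 (SE 0.0418) did not pass (edgeR adjusted p = 0.198). It shares 946 exonic bases with AC011446.2 on the opposite strand.

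IER3 (ENSG00000137331, chromosome 6, 30743199 to 30744554, minus strand), whose product modulates survival under stress, was at or near the floor throughout. Its counts were 0, 1 and 3 with ETS1 siRNA and 1, 0 and 2 in the controls, and 4, 3 and 0 after ZNF783 knockdown, against 3, 1 and 3. No fold was computed, and IER3-AS1 overlaps 359 of its exonic bases.

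**Figure D2:**
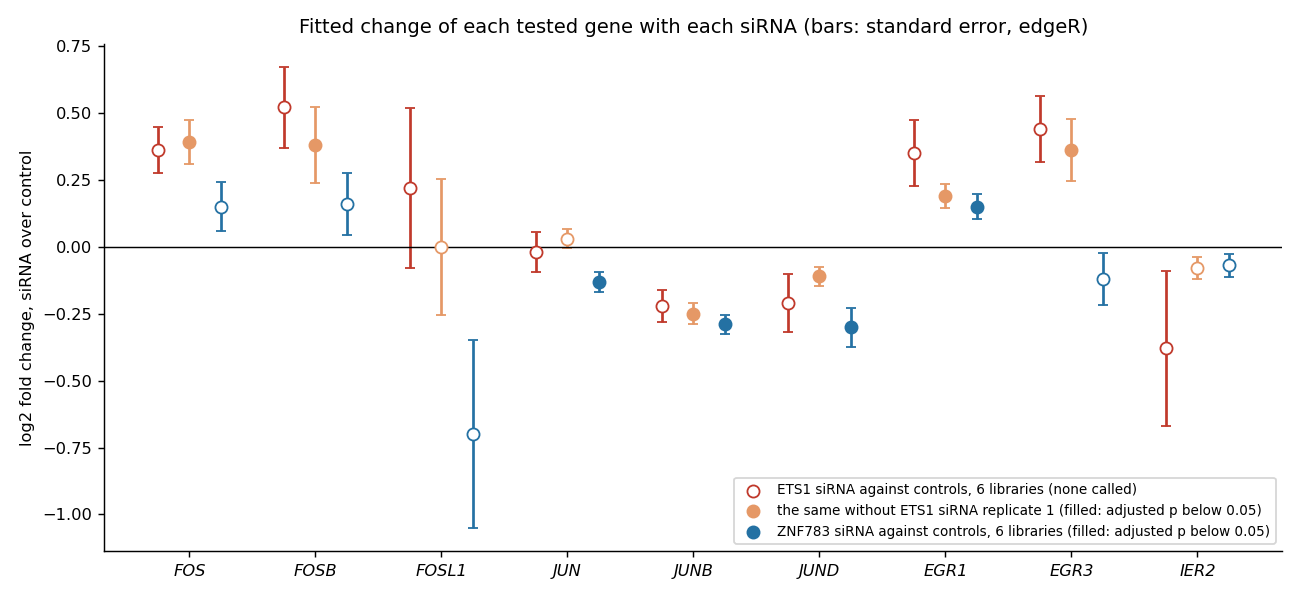
Log2 fold change of siRNA over control (linear axis) with its standard error for the 9 tested genes, in 3 edgeR fits: ETS1 siRNA over 6 libraries, the same without ETS1 siRNA replicate 1, and ZNF783 siRNA over 6 libraries. Filled points passed an adjusted p of 0.05; JUNB is below 0 in all 3 fits and EGR1 above 0 in all 3, whereas EGR3 is above 0 with ETS1 siRNA (0.44 and 0.36) and at -0.12 with ZNF783 siRNA.

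Counted by library rather than by model, 4 of 10 members had every ETS1 siRNA library above every control (FOS, FOSB, EGR1 and EGR3), where 17.5% of all tested genes did, and 2 had every one below (JUNB and JUND), where 17.8% did. The same 4 and 2 members did so without ETS1 siRNA replicate 1, where 23.2% and 23.4% of genes did. With ZNF783 siRNA, 2 lay wholly above (FOSB and EGR1, background 18.3%) and 5 wholly below (FOSL1, JUN, JUNB, JUND and IER2, background 19.8%). FOSB, EGR1, JUNB and JUND were on the same side without overlap in both experiments. The share of all genes that were so was not computed, so this cannot be read as particular to these genes. These levels are not corrected for GC content. With that correction JUND was not lower with ETS1 siRNA, and JUNB was lower only without ETS1 siRNA replicate 1.

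**Figure D3:**
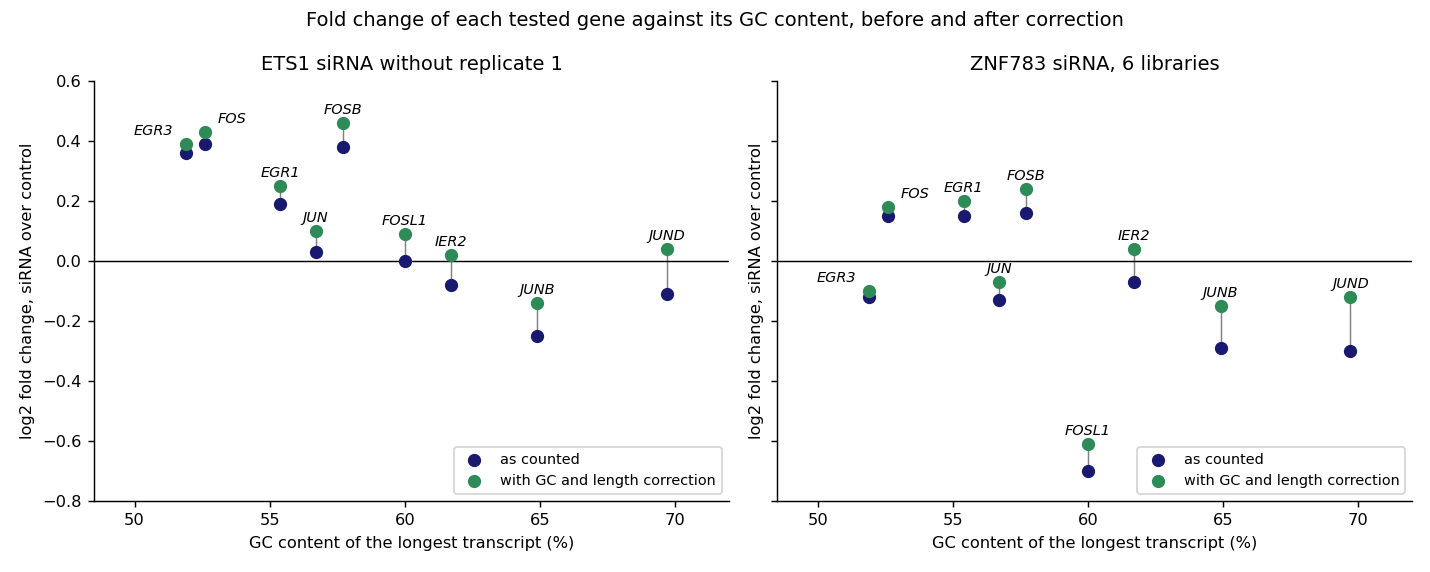
Log2 fold change of siRNA over control (linear axis) against the GC content in percent of the longest transcript, for the 9 tested genes, before and after correction for GC content and length; the left panel leaves out ETS1 siRNA replicate 1 and the right panel has the 6 ZNF783 libraries. The 2 genes of highest GC content moved most: after correction JUND stood at 0.04 (-0.11 as counted) on the left and at -0.12 (-0.30 as counted) on the right, and JUNB at -0.14 (-0.25) and -0.15 (-0.29).

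Whether the 2 siRNAs differed in their effect was tested in 1 fit of all 12 libraries, as the ETS1 effect minus the ZNF783 effect. None of the 9 members passed (edgeR), where 1.68% of all genes did, and 1, EGR3, had an unadjusted p below 0.05; DESeq2 and limma-voom also called 0. EGR3 had the smallest adjusted p, with a difference of 0.58 on the log2 scale (SE 0.163, adjusted p = 0.1, edgeR). Without ETS1 siRNA replicate 1 the differences of EGR3 (0.48, SE 0.151, edgeR adjusted p = 0.025) and JUN (0.16, SE 0.0539, adjusted p = 0.0353) passed, where 13.7% of all genes did. Both genes were relatively higher with ETS1 siRNA than with ZNF783 siRNA. JUNB differed by 0.08 (SE 0.0731, edgeR adjusted p = 0.657) and EGR1 by 0.21 (SE 0.142, adjusted p = 0.543), and these p-values do not show that the siRNAs acted alike.

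Levels of different genes were compared as TPM, in which counts are divided by gene length and then scaled to the library. In the ETS1 controls the order was JUNB (170.3 TPM) and JUND (170.2 TPM), JUN (105.8 TPM), IER2 (78.5 TPM), EGR1 (43.4 TPM), FOS (10.3 TPM), EGR3 (3.17 TPM), FOSL1 and FOSB (1.70 TPM each) and IER3 (0.0861 TPM). JUNB with JUND and FOSL1 with FOSB overlapped between libraries, and the other neighbours did not. The ZNF783 controls followed the same order at the top, with JUNB at 272.9 TPM and JUND at 248.6 TPM overlapping, then JUN (132.7 TPM), IER2 (85.8 TPM), EGR1 (70.0 TPM), FOS (15.2 TPM), EGR3 (9.44 TPM), FOSB (4.88 TPM), FOSL1 (1.99 TPM) and IER3 (0.478 TPM). IER2 and EGR1 overlapped between the ZNF783 siRNA libraries, at means of 83.1 and 79.8 TPM, whereas in both sets of controls IER2 stood clear of EGR1. In the ETS1 siRNA libraries the order of these genes was reversed in replicate 1, with IER2 at 33.8 TPM and EGR1 at 72.4 TPM. In replicates 2 and 3 IER2 (79.2 and 73.9 TPM) stood clear of EGR1 (51.1 and 51.8 TPM). Of the AP-1 members, the 3 JUN genes were the abundant transcripts and the 3 FOS genes the scarce ones in every group. The tables were made separately, so levels were not tested between experiments.

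The FOS genes summed (FOS, FOSB and FOSL1, in TPM) amounted to 4.99%, 4.27% and 4.21% of the JUN genes (JUN, JUNB and JUND) with ETS1 siRNA, against 3.11%, 3.13% and 2.95% in the controls. With ZNF783 siRNA the share was 4.24%, 4.23% and 4.53%, against 3.82%, 2.89% and 3.45% in the controls. In both experiments all siRNA libraries lay above all controls. The FOS sum itself was 17.8 to 19.7 TPM with ETS1 siRNA and 13.5 to 13.7 TPM in the controls, and the JUN sum 394.9 to 426.0 TPM with ETS1 siRNA and 438.5 to 458.6 TPM in the controls. In the ZNF783 experiment the FOS sums overlapped, at 23.2 to 25.6 TPM with siRNA and 20.1 to 24.1 TPM in the controls, and the JUN sums did not, at 548.2 to 565.0 TPM with siRNA and 632.0 to 695.7 TPM in the controls. The share is a description and was not tested; the JUN genes are richer in GC (56.7% to 69.7%) than the FOS genes (52.6% to 60.0%), and the part of this in the share was not tested.

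**Figure D4:**
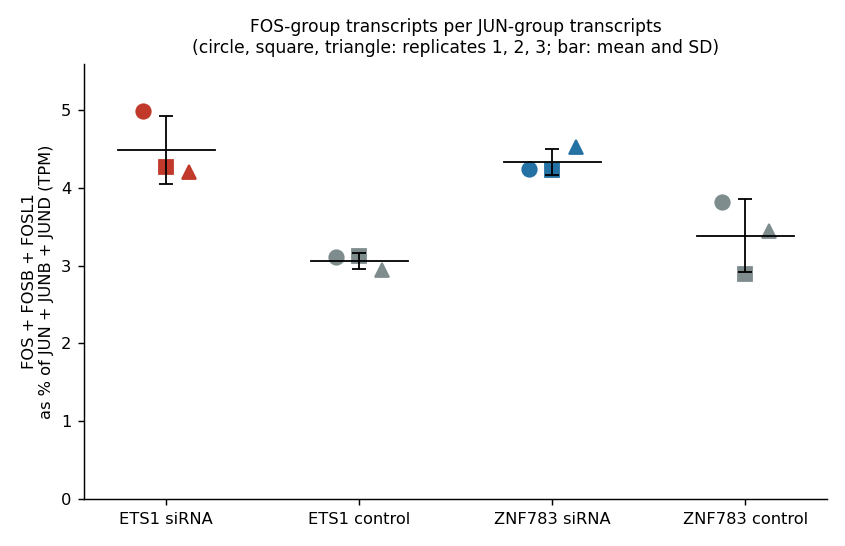
Summed TPM of FOS, FOSB and FOSL1 as a percentage of the summed TPM of JUN, JUNB and JUND (linear axis from 0) in each library, for ETS1 siRNA, ETS1 control, ZNF783 siRNA and ZNF783 control from left to right. Points are replicates 1 to 3, and lines and bars are the mean and SD; the siRNA libraries lie between 4.21% and 4.99% and the controls between 2.89% and 3.82%.

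Promoter sequence was examined for the members present in the RefSeq promoter table (GRCh38.p14, 250 bases before to 50 after the start), which holds 7 of the 10: FOS, FOSB, JUN, JUNB, JUND, EGR1 and IER2. Both strands were searched for the CArG box bound by SRF, the cAMP response element TGACGTCA, the AP-1 site TGANTCA, the EGR site GCGNGGGCG and the ETS core CCGGAA. The promoters of EGR1, called higher with ZNF783 siRNA, and of JUND and JUNB, called lower, are shown. JUN was also called lower, has none of the 5 motifs and is not shown. Capitals mark CArG boxes in EGR1 (chr5:138465229-138465528, plus strand) and the cAMP response element in JUND (chr19:18281573-18281872, minus strand); JUNB (chr19:12791236-12791535, plus strand) has none of the 5 motifs.
EGR1: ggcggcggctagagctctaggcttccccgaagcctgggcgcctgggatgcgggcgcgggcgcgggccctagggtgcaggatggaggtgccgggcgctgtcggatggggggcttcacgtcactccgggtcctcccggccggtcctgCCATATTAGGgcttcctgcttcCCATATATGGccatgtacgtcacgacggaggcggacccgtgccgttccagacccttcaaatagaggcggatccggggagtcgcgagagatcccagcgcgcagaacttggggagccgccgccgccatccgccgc
JUND: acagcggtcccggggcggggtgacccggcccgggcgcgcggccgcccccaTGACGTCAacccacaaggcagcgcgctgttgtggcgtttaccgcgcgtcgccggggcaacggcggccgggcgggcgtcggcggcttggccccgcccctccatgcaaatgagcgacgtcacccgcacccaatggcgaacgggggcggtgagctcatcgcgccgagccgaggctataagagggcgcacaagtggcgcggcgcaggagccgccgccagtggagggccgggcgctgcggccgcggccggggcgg
JUNB: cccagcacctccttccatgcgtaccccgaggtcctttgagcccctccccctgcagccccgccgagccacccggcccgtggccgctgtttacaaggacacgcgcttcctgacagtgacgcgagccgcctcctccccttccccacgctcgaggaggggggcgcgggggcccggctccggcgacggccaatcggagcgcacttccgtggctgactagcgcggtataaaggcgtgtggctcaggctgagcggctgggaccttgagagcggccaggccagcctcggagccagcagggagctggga
EGR1 holds 2 CArG boxes, at -105 to -96 and -83 to -74 from the start, and 1 EGR site at -198 to -190, and no matches overlap. The JUND element lies at -200 to -193. Among all 34943 promoters of the table a CArG box was found in 1.3%, a cAMP response element in 1.84%, an AP-1 site in 7.72%, an EGR site in 9.41% and an ETS core in 17.2%. FOSB (-205 to -200) and IER2 (-26 to -21) had 1 ETS core each, and no AP-1 site was found in the 7 windows. A match describes these letters and not a bound site.

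The upstream genes were examined as lists. Of 15 genes for SRF, ternary complex factors, myocardin-related factors and CREB, 0 passed with ETS1 siRNA over 6 libraries (edgeR; 4 at an unadjusted p below 0.05, and 1 called by DESeq2 and by limma-voom), 3 were higher and 4 lower without ETS1 siRNA replicate 1 (23.0% of all genes called), and 3 were higher and 3 lower with ZNF783 siRNA (25.1% of all genes called). In the fit of all 12 libraries ELK4 and SRF alone passed with ZNF783 siRNA, where 4.21% of all genes did. ELK4, an ETS-family ternary complex factor that acts with SRF, averaged 241.9 ± 5.42 CPM with ETS1 siRNA and 173.0 ± 7.47 CPM in the controls (SD, n = 3 each). Its log2 fold change was 0.48 (SE 0.0544, edgeR adjusted p = 0.0504), and 0.49 without ETS1 siRNA replicate 1 (SE 0.0314, adjusted p = 2.52e-17). With ZNF783 siRNA it averaged 236.6 ± 1.06 CPM, against 195.9 ± 3.87 CPM in the controls, a log2 fold change of 0.27 (SE 0.0281, adjusted p = 3.62e-10, edgeR). ELK4 was thus higher in both experiments, and 2 genes on the opposite strand share exonic bases with it. SRF itself was lower with ZNF783 siRNA (-0.19, SE 0.0388, edgeR adjusted p = 0.000156), as were ELK1 and MRTFA, while MRTFB (0.13, adjusted p = 0.00312) and the Mediator subunit MED23 (0.17, adjusted p = 0.000622) were higher. With the GC correction ELK4 stayed called (0.40 with ETS1 siRNA without replicate 1 and 0.19 with ZNF783 siRNA), but with ZNF783 siRNA 0 genes of this list were lower (edgeR), SRF standing at -0.08 (adjusted p = 0.0933), and MRTFB did not pass (0.07, adjusted p = 0.068). With that correction and without ETS1 siRNA replicate 1, 3 genes were higher and 0 lower with ETS1 siRNA (edgeR), where 19.8% of all genes passed.

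Of 17 genes for the MAP kinase steps that activate these factors, 0 passed with ETS1 siRNA (edgeR; 2 at an unadjusted p below 0.05, and 1 called by DESeq2 and 0 by limma-voom), 2 were higher and 4 lower without ETS1 siRNA replicate 1 (23.0% of all genes called), and 5 were higher and 3 lower with ZNF783 siRNA (25.1% of all genes called). In the fit of all 12 libraries 1 was higher (RPS6KA5) and 1 lower (RPS6KA1) with ZNF783 siRNA, where 4.21% of all genes passed. RPS6KA3, the ERK-activated kinase RSK2, averaged 164.7 ± 14.3 CPM with ETS1 siRNA and 126.3 ± 3.07 CPM in the controls, a log2 fold change of 0.38 (SE 0.0719, edgeR adjusted p = 0.107). It passed without replicate 1 (0.31, edgeR adjusted p = 2.02e-11), and over all libraries with DESeq2, with limma-voom quality weights and in the fit of 12. RPS6KA1, the related kinase RSK1, was lower with ZNF783 siRNA (115.0 ± 3.29 CPM, against 144.0 ± 6.13 CPM in the controls; log2 fold change -0.32, SE 0.0338, edgeR adjusted p = 7.13e-10). With the same siRNA the kinases BRAF (0.17) and MAP2K4 (0.21) were higher and MAP2K2 (-0.17) was lower. With the GC correction RPS6KA1 (-0.25, edgeR adjusted p = 1.79e-08) and MAP2K4 (0.15, adjusted p = 0.00681) still passed, and BRAF (0.09, adjusted p = 0.0902) and MAP2K2 (-0.06, adjusted p = 0.159) did not. For ETS1 siRNA without replicate 1, the corrected fit had 3 genes higher and 1 lower (ARAF, edgeR), where 19.8% of all genes passed.

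Among 30 other immediate early genes, 11 fell and 1 rose of 29 tested with ZNF783 siRNA, with a median log2 fold change of -0.12, against 13.8% lower and 11.3% higher and a median of 0.00 over all genes. DUSP1, a phosphatase that inactivates MAP kinases, averaged 75.9 ± 1.07 CPM with siRNA and 93.1 ± 2.60 CPM in the controls (log2 fold change -0.29, SE 0.0372, edgeR adjusted p = 4.57e-08). RHOB, a small GTPase, averaged 160.7 ± 0.657 CPM after ZNF783 knockdown, against 190.5 ± 6.16 CPM (-0.24, SE 0.030, edgeR adjusted p = 2.41e-08). CSRNP1 (-0.32, adjusted p = 1.32e-07, edgeR) and the growth regulator MYC (-0.25, adjusted p = 3.39e-07) were lower too, and MCL1, an inhibitor of apoptosis, was the single one higher. After the GC correction 9 were lower and 3 higher, where 11.3% and 7.79% of all genes were. DUSP1 (-0.25), RHOB (-0.17), CSRNP1 (-0.24) and MYC (-0.21) all stayed lower (edgeR). In the fit of all 12 libraries 3 were lower (RHOB, DUSP1 and SRF) and 1 higher (MCL1), where 4.21% of all genes passed.

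With ETS1 siRNA 0 of the 30 passed over 6 libraries (edgeR; 4 at an unadjusted p below 0.05, and 0 called by DESeq2 or limma-voom), and without ETS1 siRNA replicate 1 ATF3 was higher and IER5L, BTG2, GADD45B, TRIB1 and CSRNP1 were lower, 6 of 30 against 23.0% of all genes. IER5L changed by -0.43 on the log2 scale in that fit (SE 0.0432, edgeR adjusted p = 3.13e-11) and GADD45B by -0.29 (adjusted p = 0.000221). With the GC correction added to that fit 1 was higher (ATF3) and 8 were lower (edgeR), where 7.97% and 11.8% of all genes were. The difference between the siRNAs passed for 1 of the 30 over all 12 libraries (MCL1, relatively lower with ETS1 siRNA), where 1.68% of all genes passed. It passed for 11 without ETS1 siRNA replicate 1, where 13.7% of all genes did. Of these 11, 8 were relatively higher with ETS1 siRNA (6.25% of all genes were), among them ATF3, RHOB, DUSP1 and MYC.

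Other AP-1 subunits numbered 13, of which 11 were tested in each experiment. With ZNF783 siRNA ATF7 was higher (0.13, edgeR adjusted p = 0.0358) and the small MAF protein gene MAFK (-0.19, adjusted p = 0.000208) and BATF3 (-0.50, adjusted p = 0.0202) were lower, 3 of 11 against 25.1% of all genes, and 0 passed in the fit of all 12 libraries (edgeR; 2 at an unadjusted p below 0.05). With ETS1 siRNA 0 passed over 6 libraries (edgeR; 2 at an unadjusted p below 0.05, and 1 called by DESeq2 and 0 by limma-voom). Without ETS1 siRNA replicate 1, ATF2 and ATF3 were higher, and MAF (-0.73, edgeR adjusted p = 0.00157), MAFG (-0.12, adjusted p = 0.0129) and MAFK (-0.20, adjusted p = 0.000248) were lower. These MAF proteins carry a basic leucine zipper, and MAFG and MAFK lack a transactivation domain. With the GC correction MAF (-0.74) stayed lower with ETS1 siRNA in that fit, MAFG and MAFK did not pass, and with ZNF783 siRNA MAFK stood at -0.05 (edgeR adjusted p = 0.314).

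The EGR proteins are held back by NAB1 and NAB2, corepressors that bind them directly, and NAB2 is itself induced by EGR1. NAB1 was higher with ZNF783 siRNA (0.15, SE 0.0474, edgeR adjusted p = 0.0182) and, without ETS1 siRNA replicate 1, with ETS1 siRNA (0.19, SE 0.0406, adjusted p = 0.000291). NAB1 did not pass with ZNF783 siRNA when all 12 libraries were fitted together (edgeR adjusted p = 0.171). NAB2 was lower without ETS1 siRNA replicate 1 (-0.34, SE 0.0532, edgeR adjusted p = 1.48e-06), where EGR1 was higher. With ZNF783 siRNA NAB2 changed by -0.11 (adjusted p = 0.142, edgeR). Over all 6 ETS1 libraries 0 of the 4 tested genes of this list passed (edgeR; 2 at an unadjusted p below 0.05, and 0 called by DESeq2 or limma-voom). Both genes overlap others on the opposite strand. With the GC correction NAB2 (-0.23) and NAB1 (0.12) still passed without ETS1 siRNA replicate 1, and NAB1 did not with ZNF783 siRNA (0.07, edgeR adjusted p = 0.29).

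The genes whose levels most resembled those of 3 members were found over the 12 libraries after centring each experiment on its own mean, among 10385 genes of at least 10 CPM. For FOS they were STT3B (Pearson r = 0.945), KPNA5 (0.937) and UBR1 (0.934). For EGR1 they were TCAIM (0.981), REL (0.975) and UFL1 (0.974), and for JUN they were CEBPB (0.921), C1orf159 (0.913) and SOX12 (0.911). These libraries share the siRNA groups and the deviation of ETS1 siRNA replicate 1, and the correlations are descriptions.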

How the data were processed

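The authors deposited raw counts for each gene, made with featureCounts 2.0.1 from paired-end alignments, over exons of Ensembl GRCh38 release 107 and with no strand option, per the file headers. The kit was directional, per the labels' protocols, so genes that overlap on opposite strands are uncertain. The submitters' processing notes name hg38; no aligner version is stated there or in the headers.

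Knockdown and control libraries of 1 experiment were compared in edgeR 4.0.16 (R 4.3.3): default expression filter, TMM scaling, robust quasi-likelihood F test, two-sided, Benjamini-Hochberg adjustment over all genes, called below 0.05. Standard errors came from the F statistic. The 2 effects were compared in 1 fit of 12 libraries. Alternatives used DESeq2 1.42.0 and limma 3.58.1 and loess offsets for GC content and length (GENCODE 29; 97.2% and 97.9% of tested genes matched). Scripts were checked on simulated data. Members and gene lists were chosen with earlier results of these data known. Named are all members, the 2 siRNA targets, up to 4 genes per list and experiment of smallest adjusted p and the 3 genes most correlated with FOS, EGR1 and JUN; other list genes were named after their values were seen, and some listed genes are not reported here. Totals ran from 13518177 to 48996691 counts; floors cover counting error only. No pairing of samples by replicate number was seen, and the numbers were used only in the replicate block.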

Additional observations from a re-analysis of the deposited data

How the results depend on the processing

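Of the fold changes of single members under all alternatives, 470 kept direction and side of the threshold, 29 gained and 13 lost a call, and 16 changed sign. The sign changes all concern JUN, JUNB, JUND and IER2. With ETS1 siRNA (reported values -0.02, -0.22, -0.21 and -0.38), JUN was at 0.01 with library size alone, 0.04 with limma-voom quality weights, 0.10 with the GC correction, with or without the replicate block, 0.03 without ETS1 siRNA replicate 1, 0.10 with the GC correction added to that, and 0.02 without control replicate 3. JUNB was at 0.03 with the GC correction and 0.02 with the replicate block as well. JUND was at 0.07 under both, and at 0.04 with the GC correction but no ETS1 siRNA replicate 1, where IER2 was at 0.02. With ZNF783 siRNA (reported value -0.07) IER2 was at 0.04 with the GC correction, with or without the replicate block, and at 0.03 without ZNF783 siRNA replicate 1 and with the GC correction.

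Genes called with ETS1 siRNA (edgeR, 9 reported, 3535 at an unadjusted p below 0.05) numbered 253 without an expression filter, 734 with DESeq2, 23 with limma-voom, 4211 with quality weights, 24 with the GC correction, 0 with the replicate block with or without that correction, 1875 in the fit of 12 libraries, 0 at an adjusted p of 0.01, and 0 to 4649 on leaving out 1 library. The 4649 came without ETS1 siRNA replicate 1, which left 3999 with the GC correction; every other omission gave 0. Members called (0 reported) were 1 with DESeq2 (FOS, adjusted p = 0.0419), 5 with quality weights, 5 in the fit of 12 libraries, 0 to 6 on leaving out 1 library, and 6 without replicate 1 and with the GC correction. With ZNF783 siRNA (4428 genes and 4 members reported) there were 2718 genes with DESeq2, 824 genes and 1 member (JUNB) in the fit of 12 libraries, 2728 genes and 2 members without siRNA replicate 1 and with the GC correction, 2931 genes and 2 members at an adjusted p of 0.01, and 2 to 4 members on leaving out 1 library. For the difference (0 members reported) 2 were called with quality weights, 0 to 2 on leaving out 1 library, and 3 with the GC correction but no ETS1 siRNA replicate 1. The cause was not tested.

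Same-numbered libraries deviated with correlations of 0.0315, -0.0434 and 0.0642 (ETS1) and -0.0269, 0.00755 and -0.00523 (ZNF783). No pairing by number was seen, but 3 libraries per group cannot exclude it. The replicate block gave 0 and 4476 genes and 0 and 4 members in the 2 experiments, and 0 members for the difference. Depth limits FOSL1 and IER3.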

Other observations

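Genes known as targets of AP-1 or EGR1 numbered 24, of which 16 were tested with ETS1 siRNA and 15 with ZNF783 siRNA. With ZNF783 siRNA 1 rose and 7 fell, against 11.3% and 13.8% of all genes, with a median log2 fold change of -0.20 where all genes had 0.00. In the fit of all 12 libraries 0 of 16 passed (edgeR; 10 at an unadjusted p below 0.05), HBEGF standing at -0.26 (adjusted p = 0.056). HBEGF, a ligand of the EGF receptor, averaged 43.8 ± 1.63 CPM after ZNF783 knockdown, against 52.0 ± 3.27 CPM in controls (SD, n = 3 each; log2 fold change -0.24, SE 0.0485, edgeR adjusted p = 0.000158). The chromatin protein gene HMGA1 (-0.33, edgeR adjusted p = 5.59e-07), the adhesion receptor CD44 (-0.25, adjusted p = 4.98e-06) and fibronectin FN1 (-0.23, adjusted p = 0.000755) fell as well, and HMGA2 rose.

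With ETS1 siRNA 0 of the 16 passed over 6 libraries (edgeR; 7 at an unadjusted p below 0.05, and 3 called by DESeq2 and 0 by limma-voom). HBEGF averaged 25.8 ± 2.05 CPM with ETS1 siRNA and 34.3 ± 0.876 CPM in the controls, and without ETS1 siRNA replicate 1 its log2 fold change was -0.49 (SE 0.0484, edgeR adjusted p = 6.77e-12). In that fit AREG and FN1 were higher and 8 genes lower, against 9.96% and 13.0% of all genes, among them the cell cycle gene CCND1 (-0.24, edgeR adjusted p = 1.65e-10). After GC correction HBEGF stood at -0.47 in that fit and at -0.23 with ZNF783 siRNA, both called (edgeR), and 5 of the 15 genes were lower with ZNF783 siRNA. With ETS1 siRNA without replicate 1, 2 genes were then higher (FN1 and TNFRSF10B) and 7 lower, where 7.97% and 11.8% of all genes were. FN1 was called higher with ETS1 siRNA (without replicate 1) and lower with ZNF783 siRNA, and its difference passed over all 12 libraries as well as without ETS1 siRNA replicate 1.

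The ratio of EGR1 to IER2 in TPM was 2.14, 0.646 and 0.701 with ETS1 siRNA, against 0.513, 0.568 and 0.580 in the controls, and 0.899, 0.957 and 1.03 with ZNF783 siRNA, against 0.809, 0.834 and 0.803 in the controls. The siRNA libraries exceeded the controls in both experiments, and ETS1 siRNA replicate 1 had the highest of the 12 ratios. The ratio is a description and was not tested. IER2 is richer in GC (61.7%) than EGR1 (55.4%), and the part of this in the ratio was not tested.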
